A study of Rattus norvegicus with 4 samples.

Results

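The carbonic anhydrases on the array were Car1, Car2, Car3 and Car4, and they were taken as all features that carried exactly 1 of these 4 symbols in the platform annotation. They came to 7 of the 1936 features and 4 of the 958 genes with a feature of their own, with 2 features each for Car2, Car3 and Car4 and 1 for Car1. A feature is 1 spotted cDNA, named here by its number in the value table. The genes were chosen by their mean log ratios in this same comparison, so those ratios are given as a description without a test.

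Male Sprague-Dawley rats weighing 250 to 300 g received an intraperitoneal injection of 75 mg/kg α-naphthylisothiocyanate (ANIT), dissolved in olive oil at 7.5 mg/mL, or of the same volume of olive oil alone. ANIT is a toxicant of bile duct cells that blocks bile flow within the rodent liver. The right lateral liver lobe was taken 24 h later, and the liver RNA of 3 rats was combined into 1 pool per condition, so the spread between animals was not measured. Both pools were hybridised together on 4 cDNA arrays, and the dyes were swapped, so that ANIT carried Cy5 on arrays 1 and 3 but Cy3 on arrays 2 and 4. Each array gave a log ratio per feature, read as log2 and as ANIT over vehicle. The direction rests on the channel order in the labels and is likely rather than stated. If the ratios ran the other way, every ratio below would change its sign. Each SD is over the 4 hybridisations (n = 4), and so it includes both the error of hybridisation and the effect of the dyes.

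Carbonic anhydrases are zinc enzymes that interconvert carbon dioxide and bicarbonate, and they differ in where they act and how fast they turn over. Car3 has very low carbon dioxide hydratase activity, is abundant in skeletal muscle, fat and liver, and is far more abundant in the liver of male rats than of female rats. Car2 is a fast cytosolic form found in many tissues, including red blood cells, and Car1 is a slower cytosolic form best known from red blood cells and the gut. Car4 is held on the outer face of the plasma membrane by a lipid anchor. In the RefSeq gene order of the rat assembly GRCr8, Car2, Car3 and Car1 follow each other with no other protein-coding gene between them, and Car13 comes next. Car4 stands elsewhere, between Myo19 and Usp32. Car13 and the neighbours of Car4 matched no feature with 1 symbol and were not analysed here.

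Of the 7 features, 4 were lower in the ANIT pool by the rule used for all features, which asks for a mean log2 ratio of at least 1 in size (2-fold) and the same sign on all 4 arrays. By that rule 3.05% of all features were lower and 0.775% higher. These 4 were both Car3 features, 1 of the 2 Car2 features and the Car1 feature. Neither Car4 feature passed, nor did the other Car2 feature, and 0 of the 7 were higher. In order of their ratios the passing feature nearest to the limit was that of Car1 at -1.80, and the nearest outside it was a Car4 feature at -0.75. The 7 feature means had a median of -1.80, beside -0.25 over all features. In pooled liver RNA, fewer cells that hold a transcript and less of that transcript per cell cannot be told apart.

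**Figure D1:**
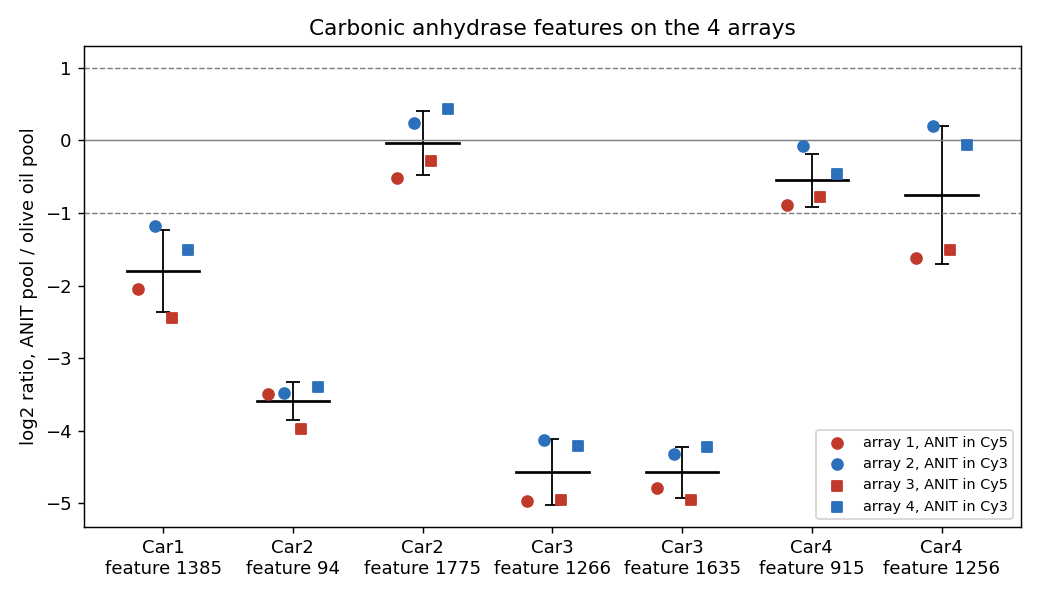
Log2 ratios (ANIT pool over olive oil pool, vertical axis) of the 7 carbonic anhydrase features on each of the 4 arrays; red points have ANIT in Cy5, blue points ANIT in Cy3, bars are the mean ± SD of the 4 hybridisations, and dashed lines mark 2-fold. Both Car3 features lie between -4.96 and -4.13, while the Car2 features lie apart, around -3.59 and -0.03.

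Car3 had the lowest ratios on the whole array. Its feature 1635 read -4.78, -4.32, -4.95 and -4.23 on arrays 1 to 4. Feature 1266 read -4.96, -4.13, -4.95 and -4.22. All 8 readings lay below every reading of every other carbonic anhydrase feature. The means were -4.57 ± 0.35 and -4.57 ± 0.45, or 23.7-fold lower in the ANIT pool on either feature. The single arrays spanned 17.5-fold to 31.1-fold on feature 1266 and 18.8-fold to 30.8-fold on feature 1635. On each of the 4 arrays these were the 2 lowest of the 1936 features, feature 1266 the lowest on arrays 1 and 3 and feature 1635 on arrays 2 and 4. If the deposited values were natural logarithms, the fold would be 96.5 and 96.1 in place of 23.7.

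Most of the spread of Car3 lay between the dye orientations. With ANIT in Cy5, feature 1266 averaged -4.96 and feature 1635 -4.87, and with ANIT in Cy3 they averaged -4.17 and -4.27. Arrays of the same orientation differed by 0.0081 (arrays 1 and 3) and 0.083 (arrays 2 and 4) in size on feature 1266, and by 0.16 and 0.087 on feature 1635. Once each array was centred on the median of its features, feature 1266 read between -4.56 and -4.29 and its SD was 0.13 (mean -4.40). Centring brought the SD of feature 1635 to 0.24 (mean -4.40), with readings of -4.11, -4.63, -4.30 and -4.57 on arrays 1 to 4. On both features the arrays with ANIT in Cy5 were then the less negative ones, the reverse of the order as deposited.

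The 2 features annotated as Car2, the fast cytosolic enzyme, did not show the same ratio. Feature 94 read -3.50, -3.49, -3.98 and -3.40 on arrays 1 to 4, a mean of -3.59 ± 0.26 or 12.0-fold lower in the ANIT pool. Feature 1775 read -0.52, 0.24, -0.29 and 0.43, a mean of -0.03 ± 0.44. Feature 94 was thus well below 0 on every array, whereas feature 1775 changed sign with the dye, below 0 on arrays 1 and 3 and above 0 on arrays 2 and 4. The difference between them was -2.98, -3.73, -3.69 and -3.83 on the single arrays (-3.56 ± 0.39), so the readings of the features did not overlap. A shift of a whole array cancels in this difference. Feature 94 was the third lowest of all features, 0.97 log2 above feature 1266 of Car3, whereas 1418 features had a lower mean than feature 1775. The sign of feature 1775 was not settled, at 0.13 with centred arrays. The mean over both features, -1.81 ± 0.31, described neither of them. Centring, which narrowed the spread of Car3, widened that of feature 94, to readings between -3.80 and -2.82 and an SD of 0.45 (mean -3.43). Arrays 1 and 3 differed by 0.48 on feature 94 as deposited, more than on 96.5% of all features. The sequences of the spotted cDNAs, and so the stretch of the Car2 transcript that each covers, were not analysed here.

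Such a gap was rare on this array. Over the 340 genes with at least 2 features of 1 symbol, the difference between the highest and the lowest feature mean had a median of 0.20 log2, and 16 genes exceeded 1. Car2, at 3.56, had the largest difference of the 340. After it came Wt1, a transcription factor, at 2.47, Hao2, a peroxisomal hydroxyacid oxidase, at 2.13, the organic anion carrier Slco1a4 at 1.80 and Casp4, an inflammatory caspase, at 1.60. In these 5 genes, Car2 included, the lower feature stood between -3.59 (Car2) and -1.76 (Casp4). A gene with all its means near 0 cannot show so large a gap. The carbonic anhydrases were chosen by their mean ratios, so the place of Car2 in this order is a description. The Car3 features differed by 0.0036 in their means, and 5 genes had a smaller difference. On single arrays they differed by 0.18, -0.18, 0.0062 and -0.013 (feature 1635 minus feature 1266), so the close means arose partly from opposite differences on arrays 1 and 2. The Car4 features differed by 0.20, near the median of all these genes.

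**Figure D2:**
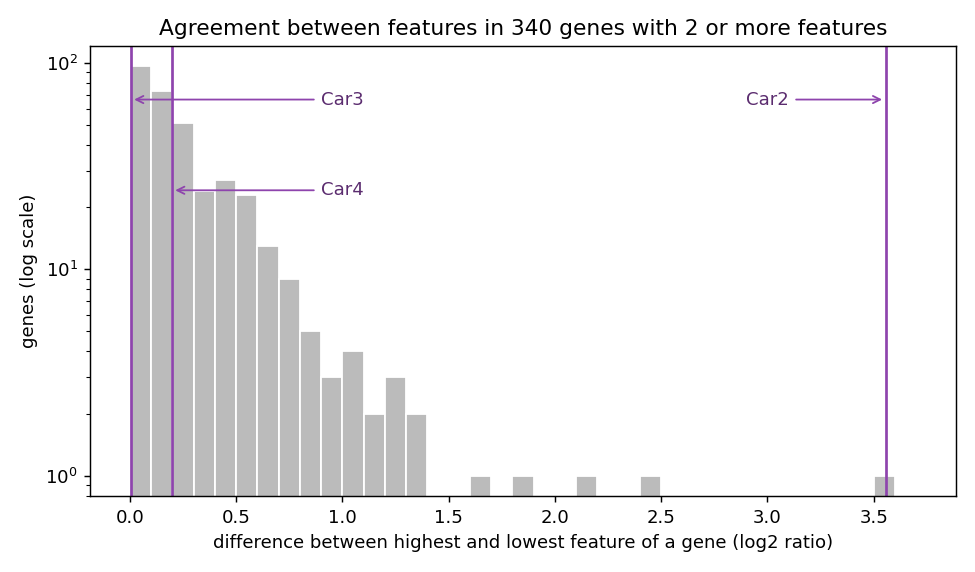
Number of genes (vertical axis, log scale) by the difference in mean log2 ratio between the highest and the lowest feature of a gene (horizontal axis), for the 340 genes with 2 or more features; purple lines mark the carbonic anhydrases with 2 features. Car2 stands at 3.56, beyond every other gene, Car3 at 0.0036 and Car4 at 0.20.

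Car1, the slower cytosolic form, had 1 feature, which read -2.05, -1.18, -2.44 and -1.51 on arrays 1 to 4. All 4 readings were beyond 2-fold, the 2 with ANIT in Cy5 farther from 0 than the 2 with ANIT in Cy3. The mean of -1.80 ± 0.56 made it 3.47-fold lower in the ANIT pool, with the arrays between 2.26-fold and 5.44-fold. It was 17th from the lowest of all features, between the organic anion transporter Slc22a8 (-1.81 ± 0.16) and Casp4 (-1.76 ± 0.24), and these neighbours lay well within its SD. Repeat arrays of Car1 agreed less closely than those of most features. Arrays 1 and 3 differed by 0.39 and arrays 2 and 4 by 0.33, more than in 91.9% and 92.0% of all features. With centred arrays the readings lay between -1.86 and -1.38. With only 1 feature, Car1 had no second spotted cDNA to compare.

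Car4, the membrane-bound form, had ratios short of the rule on both features. Feature 915 read -0.89, -0.08, -0.78 and -0.46 on arrays 1 to 4 (-0.55 ± 0.36), below 0 on all of them. Feature 1256 read -1.62, 0.19, -1.50 and -0.06 (-0.75 ± 0.95), beyond 2-fold with ANIT in Cy5 and near 0 with ANIT in Cy3. Taken from the ANIT in Cy5 arrays alone, feature 1256 had a mean of -1.56 and would have passed, and from the ANIT in Cy3 arrays alone its mean was 0.07. The order of the Car4 features turned with the dye, since feature 1256 read 0.74 and 0.72 below feature 915 on arrays 1 and 3 but 0.28 and 0.40 above it on arrays 2 and 4. By gene mean Car4 stood at -0.65 ± 0.65.

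The dye contrast, log2 of Cy5 over Cy3 as the orientations give it, holds no treatment and was not used to choose the genes. All 7 features had a contrast below 0, as did 78.1% of all features, whose median was -0.40. Feature 94 of Car2 had the contrast closest to 0, -0.15, followed by feature 915 of Car4 at -0.28. The Car3 features stood at -0.30 (feature 1635) and -0.39 (feature 1266), feature 1775 of Car2 at -0.37 and Car1 at -0.45. Feature 1256 of Car4 had the most negative contrast, -0.82, and 23.4% of all features were more negative still. For the 4 features that passed the rule the mean ratio was at least 3.97 times as large as the dye contrast. The rule asks for the same sign on all 4 arrays, so the mean of any passing feature must exceed its dye contrast in size. The genes were also chosen by these means, so the comparison is a description. For feature 1775 of Car2 and feature 1256 of Car4 the dye contrast was the larger in size.

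**Figure D3:**
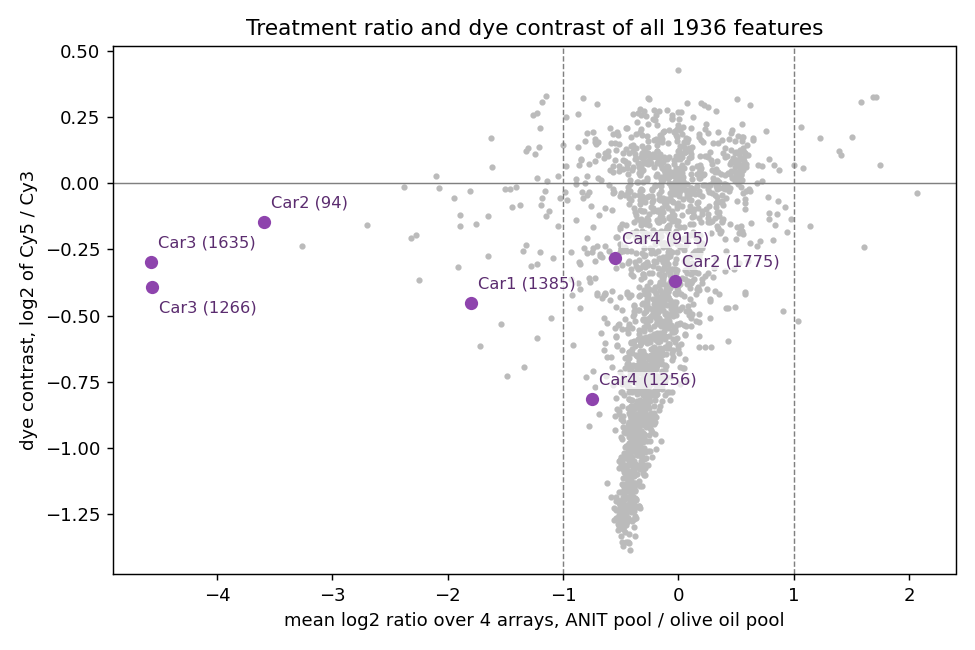
Mean log2 ratio over the 4 arrays (horizontal axis, ANIT pool over olive oil pool) and dye contrast (vertical axis, log2 of Cy5 over Cy3) of all 1936 features, each a grey point, with the 7 carbonic anhydrase features in purple and dashed lines at 2-fold. The Car3 features and feature 94 of Car2 stand at the far left at -4.57 and -3.59, and feature 1256 of Car4 lies among features with a strong dye contrast.

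The features most like each carbonic anhydrase were taken as the 3 features of other genes with the smallest Euclidean distance over the 4 arrays. For both Car3 features these were feature 94 of Car2 (distances 2.04 and 1.99 log2), Scd, the stearoyl-CoA desaturase (2.63 for both), and Acsl1, which activates long-chain fatty acids (3.76 and 3.74). These distances are large because no feature of another gene came near the Car3 ratios. Feature 94 of Car2 lay nearest to Scd (0.86), which averaged -3.26 ± 0.30, then to Acsl1 (1.78; -2.70 ± 0.22) and to feature 1635 of Car3 (1.99). Car1 lay nearest to Cyp7a1, the rate-limiting enzyme of bile acid synthesis (0.44; -1.72 ± 0.71), then to Slco1a4 (0.48; -1.91 ± 0.37) and Casp4 (0.67). Slco1a4 and Casp4 each had another feature near 0, at -0.10 and -0.15, so only 1 feature of each resembled Car1. Cyp7a1 shared the split between dye orientations seen for Car1, with a dye contrast of -0.61 beside -0.45. This split was common on the array, where 78.1% of all features had a contrast below 0 and the median was -0.40.

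The 3 features that did not pass the rule had closer neighbours. Feature 1775 of Car2 lay nearest to Ube3c, a ubiquitin ligase (0.12), Becn1, an autophagy protein (0.14), and Esrra, a nuclear receptor (0.14). Feature 915 of Car4 lay nearest to Col1a1, a collagen chain (0.28), Lims2 (0.29) and Serpina3c (0.33). Feature 1256 of Car4 lay nearest to Pla2g2a, a secreted phospholipase (0.21), the olfactory receptor Olr59 (0.22) and the growth factor Egf (0.23). These 3 had dye contrasts of -0.77, -0.92 and -0.71, much like its own.

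Genes that work alongside carbonic anhydrases were thinly covered. None of 12 further family members, 9 enzymes that use bicarbonate or 11 genes of the urea cycle and glutamine matched a feature with 1 symbol. They were not analysed here, and features with no symbol or with several were not searched for them. Of 35 genes of bicarbonate, chloride and proton transport, 4 were measured, and none passed the 2-fold rule by gene mean, by which 3.55% of the 958 genes were lower and 0.626% higher. By the same gene means Car1, Car2 and Car3 passed, but the carbonic anhydrases were chosen by their ratios and the transport genes were not. The gene mean of Car2 joins a feature at -3.59 and one at -0.03, and it passed through the former alone. The sodium bicarbonate cotransporter Slc4a4 stood at 0.03 ± 0.54, the water channel Aqp1 at -0.13 ± 0.10, and the lactate and proton carriers Slc16a1 and Slc16a7 at -0.01 ± 0.24 and -0.39 ± 0.70. The median of the 4 was -0.07 (0.09 with centred arrays), beside -0.24 over all genes.

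Because Car3 depends on sex and growth hormone in rat liver, a list of such genes was set beside it. Of 28 listed genes 8 were measured, of which 1 was lower and 0 were higher, beside 3.55% lower and 0.626% higher over all genes. Their median was -0.32, beside -0.24 over all genes. Igfals, which carries insulin-like growth factors in plasma, was the lower one (-1.18 ± 0.11). The features of Hao2 stood at -1.95 and 0.18, so that its gene mean of -0.88 ± 0.20 described neither and did not pass. Igf1 stood at -0.51 ± 0.08 and Stat5b, which relays the growth hormone signal, at -0.45 ± 0.49. The growth hormone receptor Ghr stood at -0.19 ± 0.77, and Cyp2c12, the female-predominant P450, at -0.18 ± 0.33. Serpina3n, a serine protease inhibitor, was the only measured gene of this list with a mean above 0 (0.30 ± 0.16, between 0.07 and 0.41 on the arrays). The ratios of Car3 were farther from 0 than any of these, single features of Hao2 included.

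Of the genes known from the hepatocytes around the central vein, where Car2 and Car3 are also found, 7 were measured. Their means lay below 0 for 6 of the 7, and Cyp1a2 alone lay above 0. By the rule, Cyp7a1 (gene mean -1.60 ± 0.78) and Cyp27a1, another bile acid enzyme (-1.31 ± 0.18), were lower. Cyp1a2, a dioxin-inducible P450, was higher (1.46 ± 0.19). The P450 Cyp2e1 stood at -0.51 ± 0.44, a mean over 7 features whose own means differed by up to 1.14. The median of the 7 genes was -0.36, beside -0.24 over all genes, of which 3.55% were lower and 0.626% higher. Of the genes known from hepatocytes around the portal vein 3 were measured and none passed, with Got1 at -0.73 ± 0.46, Pck1 at -0.58 ± 0.51 and Igf1 as above, and a median of -0.58.

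Markers of other cells that hold carbonic anhydrases were read in the same way. None passed the rule, by which 3.55% of all genes were lower and 0.626% higher. No red blood cell marker of the 14 listed matched a feature with 1 symbol. The skeletal muscle markers, 4 of 19 measured, lay between -0.48 and -0.37, and the adipocyte markers, 4 of 12 measured, between -0.37 and -0.24. Cholangiocyte markers, 4 of 13 measured, lay between -0.55 and -0.13, and endothelial markers, 4 of 12 measured, between -0.44 and -0.14. The dye contrast was -0.5 or below for all 4 muscle and all 4 adipocyte markers. It was so for 3 cholangiocyte and 3 endothelial markers. Such a contrast makes the same sign on all 4 arrays hard to reach, so that none passed says little about these cells. The medians of all 4 lists lay below 0 on arrays 1 and 3 and above 0 on arrays 2 and 4, for skeletal muscle -1.24 and 0.47. Among the carbonic anhydrases, feature 1256 of Car4 changed sign only in its orientation means (-1.56 and 0.07), since array 4 read -0.06. Feature 1775 of Car2 (means -0.40 and 0.33) lay below 0 on arrays 1 and 3 and above 0 on arrays 2 and 4. The array medians over all features changed sign in this way too, at -0.68, 0.31, -0.64 and 0.35 on arrays 1 to 4. With centred arrays feature 1256 lay below 0 throughout (-0.95 to -0.12), and feature 1775 lay between -0.07 and 0.36. A ratio gives no level, so the amount of any of these transcripts, and of hepatocyte markers, in the pools is unknown. The part of such cells in the carbonic anhydrase ratios was not tested.

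**Figure D4:**
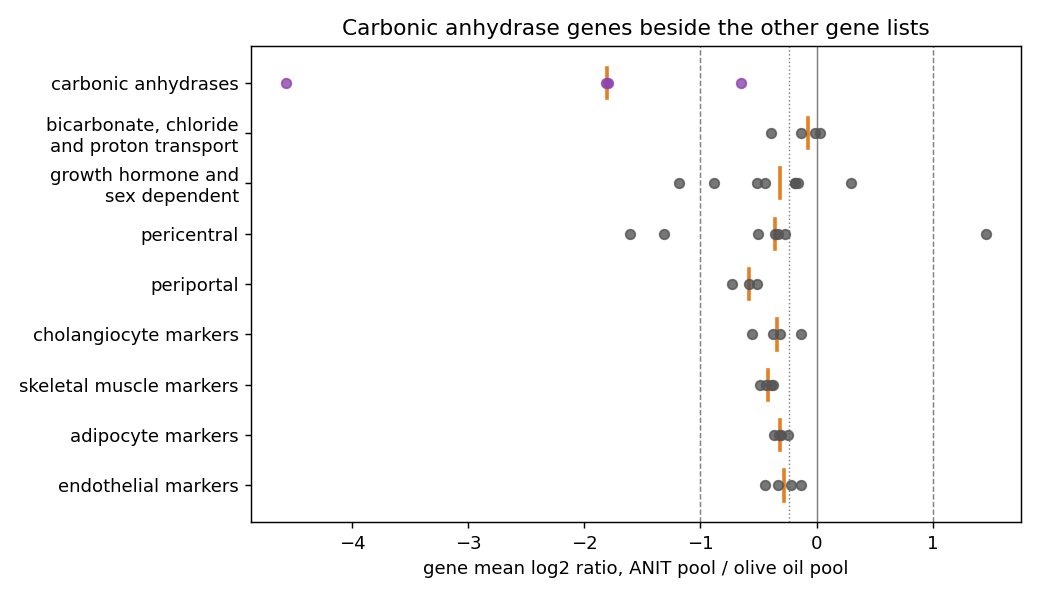
Gene mean log2 ratios (horizontal axis, ANIT pool over olive oil pool) of the 4 carbonic anhydrase genes in purple and of the measured genes of 8 other lists in grey, with list medians as orange bars, dashed lines at 2-fold and a dotted line at the median over all genes. Car3 at -4.57 lies far from every listed gene, of which the lowest is Cyp7a1 at -1.60 and the highest Cyp1a2 at 1.46.

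Facts of the whole series bear on these values. The medians of arrays 1 to 4 were -0.68, 0.31, -0.64 and 0.35, so the deposited ratios were not centred. In all, 59 features were lower and 15 higher by the rule, so that 79.7% of the passing features were lower. With each array centred, the median over all features rose by 0.17 and the rule gave 48 lower and 22 higher, or 68.6% lower. The same number of carbonic anhydrase features, 4, was lower with centred arrays.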

How the data were processed

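The authors deposited 1 log ratio per feature and array, read here as log2; its base and direction, the scanner and any background correction or normalization are unstated in the labels. Poly(A) RNA was purified from the RNA mixtures, labelled and hybridised as a dye swap, per the labels' protocols. Values were used as deposited. The 4 arrays were counted as technical repeats of the same pools, which is a reading of the labels, and no p-value was computed. Precision is limited by the number of arrays, and spot intensities were not used here.

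Symbols came from the platform annotation, and all 4 members matched RefSeq (GRCr8) by gene ID. The dye contrast is the mean with ANIT in Cy5 minus the mean with ANIT in Cy3, divided by 2. For lists, the rule was read on the mean of a gene's features. Named were all features of the members, the 3 nearest features to each, the features next to the lowest member (the neighbours of Car1 were added after seeing the data), up to 4 genes of largest ratio in each list of 3 or more measured genes, and the 5 genes with the largest difference between features. Cyp2c12, Ghr and Serpina3n were named after their values were seen. The members and lists were chosen with earlier results of these data known. Planned comparisons of protein and promoter sequences were not made: 1 of the 4 members, Car4, matched the RefSeq promoter table, and it did not pass the rule. Alternatives were natural logarithms, gene means, other size limits, centring, a single dye orientation and leaving out each array. The steps were tested on simulated data with large planted changes, and recovery was counted only where the change exceeded the dye effect by a margin. Changes as small as those of Car1 and Car4 were not planted. Python 3.11.15 was used with pandas 2.3.3, numpy 2.4.6 and matplotlib 3.10.9.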

Additional observations from a re-analysis of the deposited data

Results flagged for a closer look

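Array 3 stood apart for feature 94 of Car2, with a log2 ratio of -3.98 while the other 3 arrays lay between -3.50 and -3.40. The gap between array 3 and the nearest other array was 0.832 of the whole range, just above Dixon's 95% critical value for 4 values. With each array centred, a check added after seeing the data, the readings were -2.82, -3.80, -3.33 and -3.75 on arrays 1 to 4. Array 1 was then the farthest, with a gap of 0.525 of the range, which is short of the critical value, so that the outlying array 3 depends on the values being uncentred. The difference between the Car2 features, in which centring cancels, was also set apart on 1 array, at -2.98 on array 1 against -3.83 to -3.69 on the others, with a ratio of 0.836. In all, 10 sets of 4 values were checked and 2 passed the critical value, and these 2 sets share the readings of feature 94. Chance passes that value in about 1 of 20 sets where the 4 values differ by random error alone. Here each set held 2 arrays of each dye orientation, with an offset between them, so that rate need not hold. Without array 3 the mean of feature 94 was -3.47, and without array 1 the Car2 difference was -3.73.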

How the results depend on the processing

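With centred arrays, with ANIT in Cy3 alone, at 1.5-fold or 3-fold and with natural logarithms, 4 carbonic anhydrase features were lower and 0 higher. With ANIT in Cy5 alone 5 were lower. Giving each feature the mean of its gene also made it 5, because feature 1775 of Car2 then took the gene's mean. With each array left out in turn the number was 4 throughout. The means then lay between -4.61 and -4.53 (Car3, feature 1635), -4.59 and -4.54 (Car3, feature 1266), -3.71 and -3.47 (Car2, feature 94), -1.89 and -1.70 (Car1), -0.81 and -0.68 (Car4, feature 1256), -0.65 and -0.46 (Car4, feature 915), and -0.09 and 0.02 (Car2, feature 1775). The difference between the features lay between -3.73 and -3.38 for Car2, -0.05 and 0.04 for Car3, and -0.23 and -0.17 for Car4. Over all features, 667 were lower with ANIT in Cy5 alone, 134 at 1.5-fold, 23 at 3-fold and 113 with natural logarithms, beside 59; with each array left out 58 to 61 were lower and 13 to 15 higher. At 1.5-fold 48 were higher, at 3-fold 5 and with natural logarithms 33, beside 15. The nearest features depended on the measure. By the mean of the orientations alone, 2 of the 3 nearest features were shared for Car1 and for feature 94 of Car2, all 3 for both Car3 features, and 0 for feature 1775 of Car2, feature 915 of Car4 and feature 1256 of Car4. No list count changed with centring or with an array left out. No paired analysis was possible because each condition is 1 pool, and each ratio already sets both pools against each other on 1 array. With no spot intensities, how signal over background limits single features is unknown.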
